A study of Mus musculus with 24 samples.

Results

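Thyroid glands of Xb130-/- mice were compared between W4 and W2, that is at 4 and at 2 weeks of age, with 4 male mice at each age. These 8 arrays were taken by their labels, knockout with 4 weeks and knockout with 2 weeks, out of 24 arrays in all, and the 23185 probe sets that carry 1 gene symbol were tested out of 25206. Xb130-/- mice carry a deletion of Xb130 (gene symbol Afap1l2), which encodes an adaptor protein of the cytoplasm, so mice of both ages lack it and differ in age alone as far as the labels go. No treatment was given, the labels name no strain, and each label carries a number of its own, taken here as that of the mouse. Each array held RNA of the whole thyroid gland of 1 mouse, so fewer cells of a type and less RNA per cell cannot be told apart. Mice are named by their label numbers: LH7713, LH7715, LH7717 and LH7719 were Xb130-/- mice at W4, and LH7705, LH7707, LH7709 and LH7711 were Xb130-/- mice at W2. Xb130+/+ mice, which keep XB130, were measured at the same ages (4 at W4 and 4 at W2) and show how the same genes moved with age in wild-type glands. In the study's design W2 precedes the visible growth retardation of the congenitally hypothyroid Xb130-/- mice and W4 is its low point.

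The thyroid gland stores iodinated thyroglobulin in follicles. Follicle cells take up iodide through Slc5a5 and iodinate thyroglobulin with hydrogen peroxide from the dual oxidases, under the control of thyrotropin from the pituitary. In the weeks after birth many mouse organs shut down a set of growth genes, several of them imprinted, meaning that they are transcribed from the maternal or the paternal chromosome alone. The best known are Igf2, a fetal growth factor, and the Dlk1-Dio3 cluster, which holds long noncoding RNAs, small nucleolar RNAs (snoRNAs) and many microRNAs.

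The values are log2 expression after quantile normalization of all arrays, so a difference of 1 is a doubling. All 24 arrays entered a limma fit that gave each genotype at each age its own mean, p-values were adjusted by the Benjamini-Hochberg method over the 23185 genes, and a gene was called at an adjusted p under 0.05. Differences are W4 minus W2, with their standard error (SE).

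Afap1l2, the deleted gene, read 8.97, 9.50, 9.07 and 9.11 in the Xb130-/- mice at W4 and 9.60, 9.31, 9.51 and 9.35 at W2. The 8 Xb130+/+ mice of these ages read 10.41 to 11.05, above every Xb130-/- mouse, so the arrays fit their genotype labels. The difference between ages was -0.28 ± 0.11 (SE) in Xb130-/- glands and not called (adjusted p = 0.245). The part of the gene that its probes cover is not known here.

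Thymus tissue lies close to the thyroid gland, and its markers set arrays apart within both ages. Rag1, needed to rearrange antigen receptor genes in developing lymphocytes, read 5.62, 5.31, 9.04 and 5.99 at W4 (LH7713, LH7715, LH7717 and LH7719) and 5.06, 8.63, 8.85 and 8.11 at W2 (LH7705, LH7707, LH7709 and LH7711). Cd3e, a chain of the T cell receptor complex, read 7.09, 6.86, 9.32 and 7.53 at W4 and 6.85, 9.67, 9.57 and 9.32 at W2. Cd3g, another chain of that complex, read 7.02, 6.59, 9.90 and 7.52 at W4 and 6.84, 9.74, 9.95 and 10.08 at W2. LH7717 at W4 and LH7707, LH7709 and LH7711 at W2 were therefore high in all 3 genes, while the Xb130+/+ mice of these ages stayed at 6.34 or lower for Rag1. The mean of 22 thymocyte markers spanned 5.97 to 7.77 in the Xb130-/- mice at W4 and 5.96 to 7.84 at W2, against 6.08 to 6.57 in the Xb130+/+ mice at W4 and 5.97 to 6.38 at W2. None of the 22 markers was called between the ages, and all 22 had a negative difference, with a median of -0.68. Because more arrays at W2 than at W4 carried these transcripts, the comparison was also fitted with the thymocyte mean as a covariate and without the 4 marked arrays, which leaves 3 mice at W4 and only LH7705 at W2. LH7725 and LH7727, Xb130-/- mice at 3 months with thymocyte means of 9.35 and 8.44, were marked too and left out of that fit. Of the 76 called genes named here 14 lost the call with the covariate, and 12 had a difference over 1.5 times smaller without the marked arrays. These values stand where the genes are described. The markers' part in single results was not tested beyond these values.

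**Figure D1:**
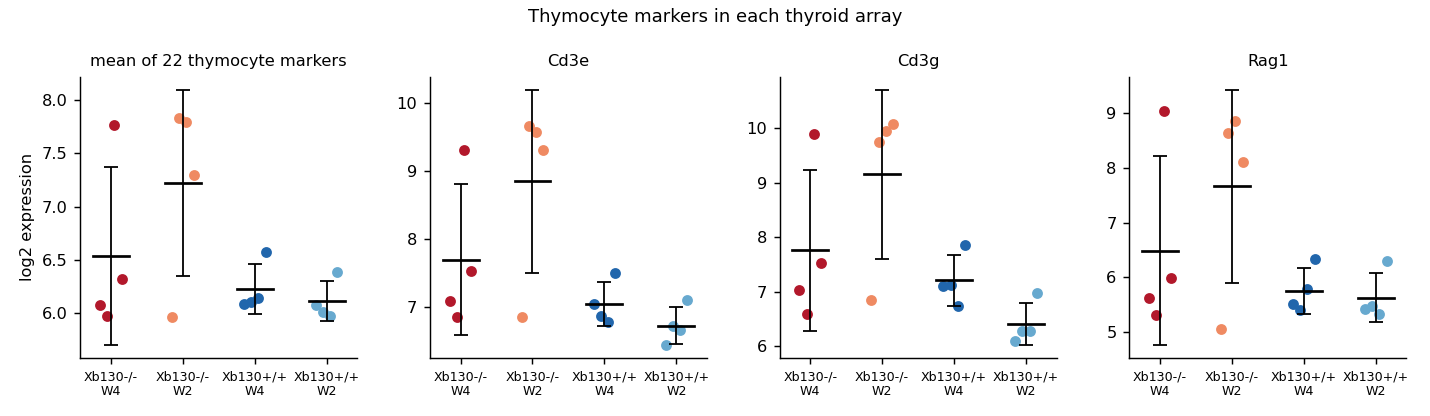
Log2 expression of thymocyte markers in each array of the 4 groups at W4 and W2, as the mean of 22 markers and as Cd3e, Cd3g and Rag1. Points are mice, bars means and whiskers SD (n = 4), and the 3 high points at W2 and the single high point at W4 among Xb130-/- mice are the 4 marked arrays, with Rag1 between 8.11 and 9.04.

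Between W2 and W4 the Xb130-/- gland raised 87 genes and lowered 113 (200 genes, or 0.863% of those tested, with 0.375% higher and 0.487% lower). Differences were moderate. Their median size was 0.58 on the log2 scale, and 9 genes were at least 2-fold higher and 16 at least 2-fold lower. In 193 of the 200 the 4 mice at W4 lay completely above or below the 4 mice at W2, as they did in 8.53% of all genes (4.1% with W4 above and 4.43% with W4 below). Since the 200 were selected for a large difference between these same mice, this count is a description and not a test. With the thymocyte mean as a covariate 148 of the 200 were still called in the same direction, out of 172 calls in that fit (0.742%). Without the 4 marked arrays all 200 kept their direction. For the 193 this was fixed in advance, since any part of these mice gives the same sign.

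The number of calls varied with the arrays fitted. A fit of the 8 Xb130-/- arrays alone called 14 genes, 10 of them among the 200, and 3047 genes passed an unadjusted p under 0.05, against 3031 in the fit of all arrays. Leaving out LH7711 left 56 calls, LH7715 76, LH7709 77, LH7713 130 and LH7717 133. Of the 76 called genes named here, 30 were called without each Xb130-/- array in turn, and the other 46 lost the call without at least 1 array. All directions were kept, which was fixed in advance for genes with complete separation of the ages. For the 46, the highest adjusted p over the arrays left out is given below with the mouse concerned where the gene is described in full.

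The largest group that moved was the imprinted cluster on chromosome 12 between Dlk1 and Dio3, and it moved down. Of its 66 measured genes 13 were lower at W4 and none higher, that is 19.7% against 0.487% of all genes, and the cluster was singled out after these values were seen. The median difference over the 66 genes was -0.27, against 0.0098 over all genes, and 55 of the 66 differences were negative. The called genes were 3 long noncoding RNAs, 3 of 6 measured snoRNAs and 7 of 51 measured microRNAs. The first called gene along the chromosome was Meg3 and the last Mir369, a stretch that holds 61 of the 66 measured genes. The 4 measured genes beyond Mir369, Dio3 among them, were not called, which is too few to show a boundary.

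Rian, a long noncoding RNA that carries a row of snoRNAs in its introns, read 8.99, 8.61, 8.52 and 8.89 at W4 and 9.80, 9.64, 9.44 and 9.93 at W2. The 4 mice at W4 all lay below those at W2, and the difference was -0.95 ± 0.17 (SE), a 1.93-fold fall (adjusted p = 0.0085). DQ267100, a snoRNA that lies within Rian, read 6.75, 6.83, 7.21 and 7.05 at W4 and 8.38, 8.18, 8.36 and 8.24 at W2. It fell by 1.33 ± 0.14 (SE) on the log2 scale and had the lowest adjusted p of the cluster (8.48e-05), and it was among the 14 genes called from the 8 Xb130-/- arrays alone (adjusted p = 0.0106). AF357426, another snoRNA within Rian, fell by 1.24 ± 0.20 (adjusted p = 0.0044), with 4.37, 4.42, 4.42 and 5.03 at W4 and 6.42, 5.31, 5.82 and 5.65 at W2. AF357425, the snoRNA next to it, fell by 1.14 ± 0.24 (adjusted p = 0.021, and 0.0865 without LH7715).

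Meg3, the maternally expressed long noncoding RNA at the start of the cluster, read 9.23, 9.11, 9.12 and 9.14 at W4 and 10.11, 9.50, 9.85 and 10.21 at W2. It fell by 0.77 ± 0.16 (SE; adjusted p = 0.0208, and 0.0956 without LH7711). Mirg, the long noncoding RNA from which many of the cluster's microRNAs are cut, read 7.72, 7.52, 7.69 and 7.87 at W4 and 8.33, 8.25, 8.30 and 8.56 at W2, a fall of 0.66 ± 0.11 (adjusted p = 0.0044). Both groups were compact and apart for Mirg, while the W2 mice were more scattered for Meg3. Dlk1, the paternally expressed gene that opens the cluster and encodes a membrane protein of immature cells, averaged 7.56 ± 0.30 at W4 and 8.48 ± 0.51 at W2 (SD, n = 4 each) and was not called (-0.92 ± 0.24 SE, adjusted p = 0.076). Rtl1, a paternally expressed gene derived from a retrotransposon, differed by -0.33 ± 0.20 (adjusted p = 0.491). Dio3, the deiodinase that inactivates thyroid hormone and closes the cluster, differed by 0.17 ± 0.20 (adjusted p = 0.756).

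The largest fall of all 23185 genes past the threshold was Mir300, which read 4.39, 3.67, 3.90 and 4.17 at W4 and 5.48, 4.81, 5.997 and 5.77 at W2, a 2.79-fold difference (-1.48 ± 0.25 SE, adjusted p = 0.0045). Mir544 fell by 0.89 ± 0.14 (adjusted p = 0.0039) and Mir485 by 0.76 ± 0.13 (adjusted p = 0.0045), or by 0.50 without the marked arrays. Mir453 fell by 1.01 ± 0.20 (adjusted p = 0.0171, and 0.0836 without LH7711) and Mir377 by 0.90 ± 0.18 (adjusted p = 0.0171, and 0.0831 without LH7711). Mir369 fell by 0.94 ± 0.21 (adjusted p = 0.029, 0.12 without LH7709 and 0.0574 with the thymocyte covariate) and Mir382 by 0.75 ± 0.16 (adjusted p = 0.0249, and 0.1 without LH7711). In 6 of these 7 the W4 mice all lay below the W2 mice, and Mir377 was the exception, with 6.15 in LH7719 at W4 against 6.12 in LH7707 at W2. Mir300 and Mir544 read low on the array, at the 11.1 and 3.22 percentile of mean levels over genes. A probe set of this array reads the labeled RNA of the locus, so mature microRNA, its precursor and the host transcript cannot be told apart, and Mir453, Mir377 and Mir369 lie within Mirg.

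The mature microRNAs of these 7 genes are shown because they are the largest class among the called genes of the cluster. Their seeds (bases 2 to 8, in capitals), which pair with target messages, can also be compared. Sequences are those of RefSeq (GRCm38.p6), 12 arms on the plus strand of chromosome 12.
miR-300-5p: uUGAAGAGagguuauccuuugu
miR-300-3p: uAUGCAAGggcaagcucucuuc
miR-544-5p: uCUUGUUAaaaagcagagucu
miR-544-3p: aUUCUGCAuuuuuagcaagcuc
miR-382-5p: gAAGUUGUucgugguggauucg
miR-382-3p: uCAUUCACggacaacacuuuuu
miR-485-3p: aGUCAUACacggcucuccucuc
miR-453: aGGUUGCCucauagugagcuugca
miR-377-5p: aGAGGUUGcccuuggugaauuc
miR-377-3p: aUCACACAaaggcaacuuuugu
miR-369-5p: aGAUCGACcguguuauauucgc
miR-369-3p: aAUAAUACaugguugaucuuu
The 12 arms carried 12 different seeds. Only 1 of them, that of miR-453, was shared with another measured gene of the cluster (miR-496a-5p), whose gene Mir496a differed by -0.12 and was not called. The printed arms of the 7 genes thus had no seed in common. For Mir485 only the miR-485-3p arm is printed, and whether the mature arms themselves fell was not measured.

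In Xb130+/+ glands the same cluster had a median difference of -0.09, with 45 of 66 differences negative and none called. The 13 genes called in Xb130-/- glands differed by -1.48 to -0.66 there and by -0.63 to 0.02 in Xb130+/+ glands, and each fell further in Xb130-/- than in Xb130+/+ mice. Since the 13 were selected for their fall in Xb130-/- mice, this is a description and not a test. DQ267100 read 6.55, 6.25, 6.60 and 6.85 in Xb130+/+ mice at W4 and 6.98, 6.76, 6.82 and 7.53 at W2. Its W4 values in Xb130-/- mice were thus near those of Xb130+/+ mice at W2. The test of the difference in change between the genotypes did not pass for any gene of the cluster, with a lowest adjusted p of 0.182 among the 13. With the thymocyte covariate 12 of the 13 were still called, and without the marked arrays all 13 were lower at W4. For all but Mir377 the direction without the marked arrays was fixed in advance, since their ages did not overlap. Between 7 and 14 genes of the cluster were called without 1 Xb130-/- array (7 without LH7709, LH7711 or LH7715), and 7 of the 13 were called without each array in turn. Only 1 was called from the 8 Xb130-/- arrays alone.

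**Figure D2:**
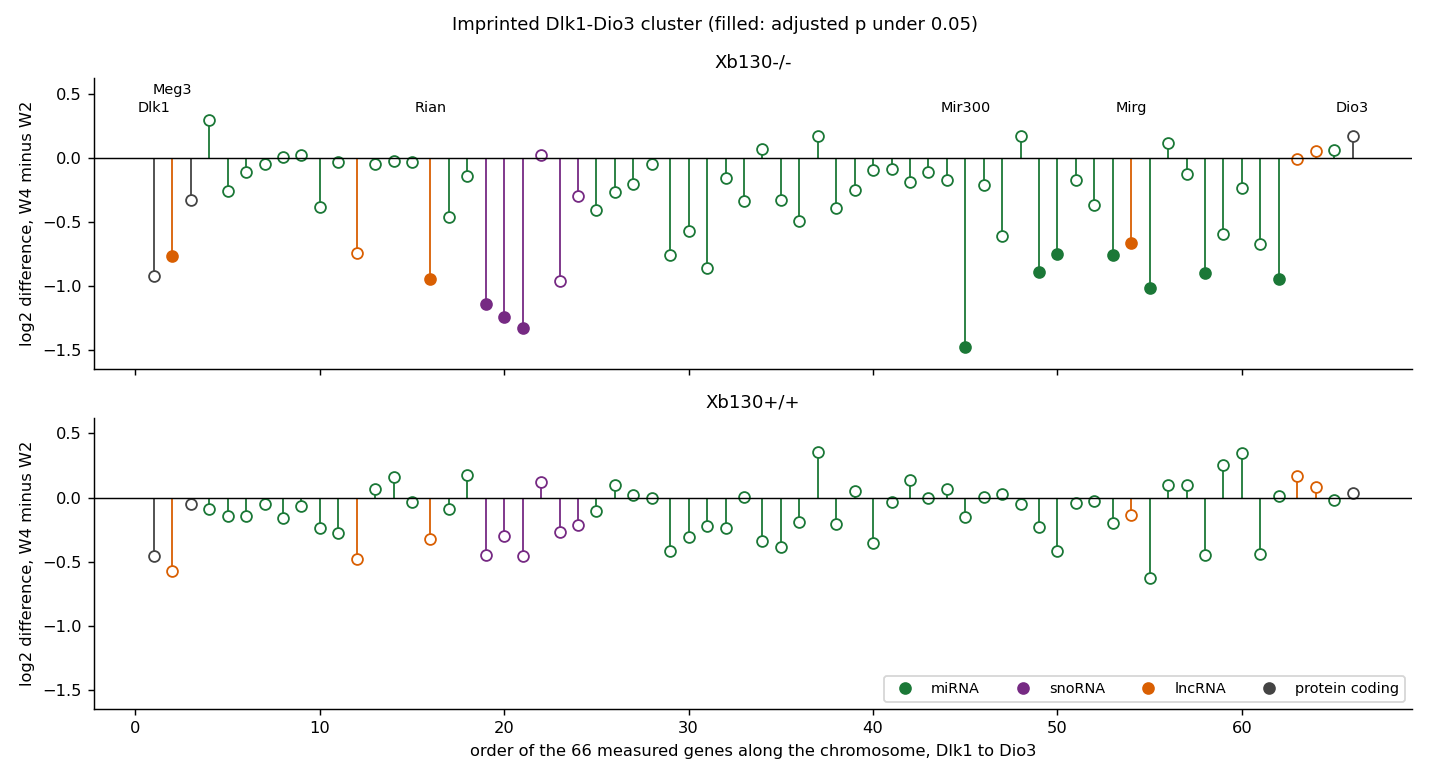
Log2 difference W4 minus W2 of the 66 measured genes from Dlk1 to Dio3, in their order on the chromosome, in Xb130-/- mice (upper) and Xb130+/+ mice (lower), with n = 4 per age. Filled points have an adjusted p under 0.05, and the 13 filled points in Xb130-/- glands all lie below 0, down to -1.48 for Mir300, while Xb130+/+ glands have none.

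Outside the cluster Igf2, Gpc3 and Zim1 fell. Of 32 measured genes of a list of imprinted and juvenile growth genes, 6 were lower at W4 (0.487% of all genes were), none higher and 26 not called, with a median difference of -0.28. Of these 6 Meg3, Rian and Mirg are genes of the cluster. Among the 27 members outside it 3 were called, the median difference was -0.22, and in 10 the W4 mice all lay below the W2 mice, as in 4.43% of all genes. The median of the whole list was -0.13 in Xb130+/+ glands, where no member was called. The mean level of the whole list was 8.70 to 8.84 at W4 and 9.06 to 9.36 at W2 in Xb130-/- mice, against 8.51 to 8.86 at W4 and 8.72 to 9.06 at W2 in Xb130+/+ mice, so that the ages overlapped only in Xb130+/+ mice. The list held 4 to 6 calls without 1 array.

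Igf2 read 9.43, 9.08, 9.08 and 9.20 at W4 and 10.27, 10.42, 10.41 and 11.16 at W2, a 2.59-fold fall (-1.37 ± 0.25 SE, adjusted p = 0.0086). Gpc3, a cell surface proteoglycan that restrains growth, fell by 0.96 ± 0.14 (adjusted p = 0.003). Zim1, an imprinted zinc finger gene, fell by 1.19 ± 0.28 (adjusted p = 0.0458, 0.183 without LH7711 and 0.0799 with the thymocyte covariate). H19, the maternally expressed RNA next to Igf2, read 9.77, 8.57, 8.38 and 8.37 at W4 and 9.85, 10.002, 10.21 and 11.05 at W2 and was not called (-1.50 ± 0.54, adjusted p = 0.213). Peg3, a paternally expressed zinc finger gene, differed by -0.34 ± 0.11 (adjusted p = 0.136). Of the IGF axis list (20 genes, median 0.0011), Igf2 and Pappa2, a protease that cleaves IGF binding proteins, were lower (-0.71 ± 0.14, adjusted p = 0.0173, and 0.0856 without LH7711 for Pappa2), and none was higher. Without the marked arrays the difference of Pappa2 was -0.44. Among genes picked after their values were seen, the growth factors Mdk (-0.64 ± 0.15, adjusted p = 0.0467, 0.188 without LH7711 and 0.0878 with the thymocyte covariate) and Ptn (-0.98 ± 0.20, adjusted p = 0.0184, and 0.0887 without LH7711) and the adhesion protein Cdh2 (-0.75 ± 0.12, adjusted p = 0.0044) fell as well. Mdk and Ptn are related heparin-binding growth factors of embryonic tissues.

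A few extracellular matrix genes fell. Lists of fibrillar and other collagens (25 genes, median -0.25), elastic fibers and microfibrils (15 genes, median -0.19), matrix glycoproteins and proteoglycans (36 genes, median -0.16), matrix proteases and inhibitors (24 genes, median -0.07) and collagen biosynthesis and crosslinking (26 genes, median -0.02) held 1, 2, 1, 2 and 2 lower genes, and 1 higher gene, a collagen, where 0.487% of all genes were lower and 0.375% higher. The medians in Xb130+/+ glands were -0.11, -0.32, -0.17, -0.11 and -0.11, with no call. Fbln2, a fibulin of elastic fibers and vessel walls, read 9.98, 9.997, 9.83 and 10.14 at W4 and 10.87, 10.52, 10.71 and 10.94 at W2, without overlap (-0.77 ± 0.11 SE, adjusted p = 0.003). P3h1, an enzyme that hydroxylates collagen prolines, had tight groups, with 8.50, 8.49, 8.47 and 8.49 at W4 and 8.90, 8.84, 8.87 and 8.86 at W2, and fell by 0.38 ± 0.06 (adjusted p = 0.0045). Mmp14, a membrane-bound collagenase, fell by 0.54 ± 0.09 (adjusted p = 0.0045).

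The other matrix calls were each lost without at least 1 array. Mfap2, a microfibril protein, fell by 0.68 ± 0.15 (adjusted p = 0.0271, and 0.119 without LH7711), or by 0.37 without the marked arrays. P4ha3, a subunit of collagen prolyl hydroxylase, fell by 0.96 ± 0.23 (adjusted p = 0.0471, 0.174 without LH7715 and 0.0878 with the thymocyte covariate). Adamts12, a secreted metalloprotease, fell by 0.69 ± 0.14 (adjusted p = 0.0189, and 0.0909 without LH7711). For Nid1, a linker of basement membranes, the fall was 0.45 ± 0.11 (adjusted p = 0.0468, 0.187 without LH7711 and 0.0647 with the thymocyte covariate). Col4a6, a basement membrane collagen, fell by 0.30 ± 0.07 (adjusted p = 0.0465, and 0.176 without LH7715). Against these, Col8a1, a short-chain collagen of vessel walls, rose by 0.79 ± 0.14 (adjusted p = 0.0069), with 9.30, 8.89, 8.82 and 8.74 at W4 and 8.32, 8.21, 8.09 and 7.95 at W2, and this call held without each array. Itgbl1, a secreted protein with integrin-like repeats, rose by 0.98 ± 0.16 (adjusted p = 0.0044), with 8.28, 8.25, 7.69 and 7.60 at W4 and 7.03, 6.91, 7.02 and 6.93 at W2. In Xb130+/+ glands Itgbl1 read 6.88 to 7.25 at W4 and 6.84 to 7.04 at W2.

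Single cell surface genes were also among the falls, where 0.487% of all genes were lower. Itga2, a collagen-binding integrin chain and the single called gene of 21 integrins (median -0.03), read 8.29, 7.38, 7.99 and 8.29 at W4 and 9.04, 8.81, 9.37 and 9.46 at W2 (-1.18 ± 0.24 SE, adjusted p = 0.0196, and 0.088 without LH7711). Cldn6, a claudin of embryonic epithelia and the single called gene of 45 polarity and junction genes (median 0.006), fell by 0.67 ± 0.16 (adjusted p = 0.0438, 0.167 without LH7715 and 0.0647 with the thymocyte covariate), or by 0.42 without the marked arrays. Aplnr, the apelin receptor of endothelium and the single called gene of 31 angiogenesis genes (median -0.13), fell by 0.99 ± 0.21 (adjusted p = 0.0271, and 0.12 without LH7711). The 18 endothelium markers held no call, with 15 differences negative and 3 positive. Their median was -0.08, or -0.20 without the marked arrays, against -0.26 in Xb130+/+ glands. At W4 the means of Itga2 and Cldn6 were still above those of Xb130+/+ mice. Itga2 averaged 7.99 ± 0.43 at W4 and 9.17 ± 0.30 at W2 in Xb130-/- mice, against 6.82 ± 0.42 at W4 and 7.29 ± 0.53 at W2 in Xb130+/+ mice (SD, n = 4 each). Cldn6 averaged 9.70 ± 0.25 and 10.37 ± 0.18 in Xb130-/- mice at W4 and W2, against 8.91 ± 0.09 and 8.98 ± 0.29 in Xb130+/+ mice at W4 and W2.

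**Figure D3:**
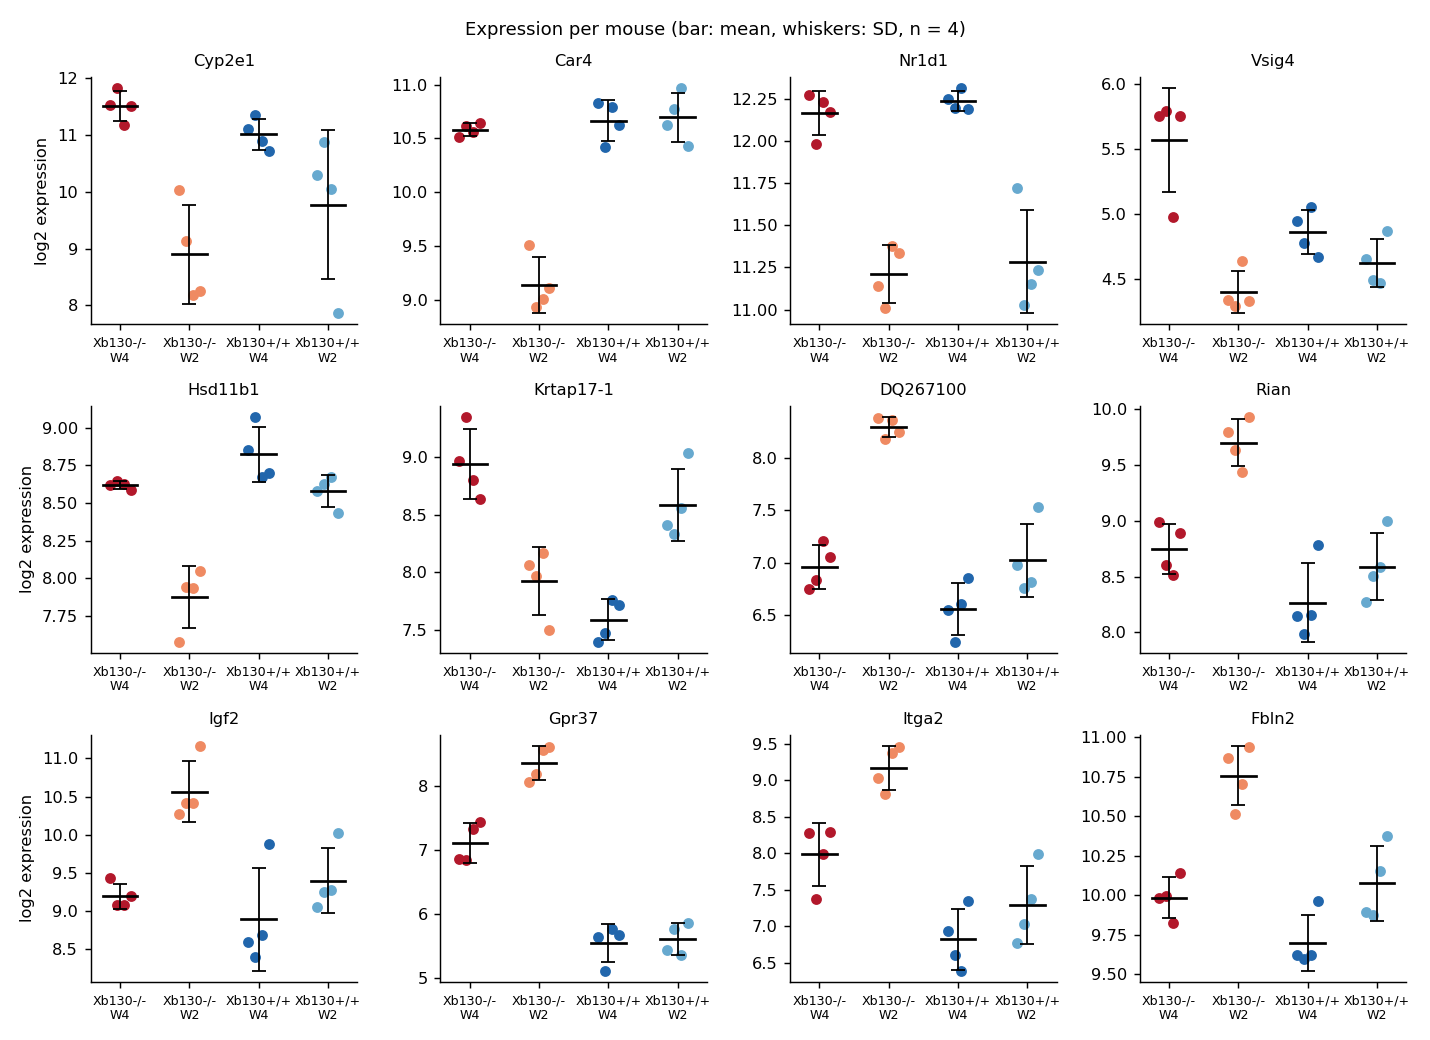
Log2 expression of 12 genes in each mouse, by genotype and age, with bars for means and whiskers for SD (n = 4). Read row by row, the first 6 genes were higher and the last 6 lower in Xb130-/- mice at W4 than at W2, from 2.61 for Cyp2e1 to -1.37 for Igf2, and the vertical scale differs between genes.

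Among the other large falls were those of Agtr2, Sst and Gpr37. Agtr2, the angiotensin receptor typical of fetal tissue, read 5.08, 5.22, 4.97 and 5.67 at W4 and 6.26, 6.45, 6.83 and 7.21 at W2 (-1.45 ± 0.29 SE, adjusted p = 0.0181, and 0.0882 without LH7711), with a difference of -0.94 without the marked arrays. Sst, the somatostatin gene, which C cells and other endocrine cells express, read 9.62, 9.61, 9.42 and 9.15 at W4 and 10.48, 10.60, 10.79 and 11.32 at W2, a 2.54-fold fall (-1.34 ± 0.23, adjusted p = 0.0053). The C cell list (11 genes) had a median of 0.01 and no call. Gpr37, a G protein-coupled receptor best known from brain, read 6.85, 6.84, 7.33 and 7.43 at W4 and 8.06, 8.20, 8.56 and 8.61 at W2 (-1.24 ± 0.20, adjusted p = 0.0039). In Xb130+/+ mice it stayed at 5.11 to 5.76 at W4 and 5.35 to 5.86 at W2, below every Xb130-/- mouse. The test of the difference in change gave an adjusted p of 0.182 for Gpr37.

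Further falls past the threshold came from H2-M11, a nonclassical histocompatibility gene (-1.38 ± 0.28 SE, adjusted p = 0.0181, and 0.0867 without LH7711, with a difference of -0.84 without the marked arrays), and from Lgi1, a secreted protein of neurons (-1.21 ± 0.28, adjusted p = 0.0458, 0.177 without LH7711 and 0.0859 with the thymocyte covariate). C1qtnf3, a secreted relative of adiponectin, fell by 1.15 ± 0.23 (adjusted p = 0.0174, and 0.0859 without LH7711) and Nrk, a kinase known from embryo and placenta, by 1.07 ± 0.21 (adjusted p = 0.0181, and 0.086 without LH7711). Col9a3, a cartilage collagen and the single called gene of 15 cartilage markers (median 0.09), read 7.41, 7.41, 7.40 and 7.68 at W4 and 7.83, 8.18, 8.17 and 8.33 at W2 (-0.65 ± 0.10, adjusted p = 0.003), with a difference of -0.33 without the marked arrays. In Xb130+/+ mice H2-M11 differed by -1.30 (adjusted p = 0.063) and Col9a3 by -0.06.

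The largest rise was that of Cyp2e1, a cytochrome P450 that oxidizes ethanol and small xenobiotics. It read 11.53, 11.82, 11.18 and 11.50 at W4 and 10.02, 9.13, 8.19 and 8.24 at W2, a 6.11-fold difference (2.61 ± 0.45 SE, adjusted p = 0.0067), with compact values at W4 and a wide spread at W2. Without the marked arrays the difference was 1.60 on the log2 scale. In Xb130+/+ mice it read 11.10, 11.35, 10.89 and 10.71 at W4 and 10.29, 10.88, 10.05 and 7.87 at W2 and was not called (1.24, adjusted p = 0.301). Cyp2e1 is expressed in many tissues, fat among them, and adipocyte markers are given beside it. The adipocyte list (16 genes, none called) had a median of 0.27, with means of 9.86 to 10.43 at W4 and 9.70 to 10.30 at W2, and Adipoq, which encodes adiponectin, read 8.91, 8.56, 8.45 and 8.13 at W4 and 7.94, 7.93, 8.03 and 8.75 at W2. Of the 16 adipocyte genes 14 had a positive and 2 a negative difference. The adipocytes' part in these rises was not tested.

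Metabolic genes rose singly. Hsd11b1, which regenerates active glucocorticoid and was picked after its values were seen, read 8.62, 8.64, 8.63 and 8.59 at W4 and 7.58, 7.94, 7.94 and 8.05 at W2 (0.74 ± 0.10 SE, adjusted p = 0.0012). Scd1, the desaturase that makes oleate, was the single called gene of 31 genes of fatty acid and triglyceride synthesis (median 0.12), at 0.58 ± 0.12 (adjusted p = 0.0271, and 0.0856 without LH7711). Pcx, pyruvate carboxylase, rose by 0.63 ± 0.15 (adjusted p = 0.0448, and 0.129 without LH7709), and Aco1, the cytosolic aconitase, fell by 0.31 ± 0.07 (adjusted p = 0.0284, and 0.115 without LH7711, or by 0.18 without the marked arrays), among 30 genes of the TCA cycle and pyruvate metabolism (median 0.02). Adh7, a retinol-oxidizing alcohol dehydrogenase, rose by 0.88 ± 0.19 (adjusted p = 0.028, and 0.108 without LH7711), with 7.77, 7.78, 7.54 and 7.40 at W4 and 6.79, 6.85, 6.75 and 6.57 at W2. No gene was called among 64 of oxidative phosphorylation (median -0.02), 34 of fatty acid oxidation (median -0.01), 60 of the mitochondrial ribosome (median -0.01) or 22 of sterol synthesis and uptake (median 0.01).

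Mup13, Klk1b26, Vipr2, Nppc and Gsn were also higher at W4. Mup13, a major urinary protein, rose 3.24-fold (1.70 ± 0.34 SE, adjusted p = 0.0181, and 0.0726 without LH7715), and Klk1b26, a kallikrein, 2.99-fold (1.58 ± 0.37, adjusted p = 0.0438, 0.173 without LH7711 and 0.0704 with the thymocyte covariate). In Xb130+/+ glands Mup13 differed by 1.26 (adjusted p = 0.123) and Klk1b26 by 1.71 (adjusted p = 0.063). Both belong to families of near-identical genes, so their probe sets may read relatives. Vipr2, a receptor for vasoactive intestinal peptide, read 8.52, 8.95, 9.01 and 8.69 at W4 and 8.001, 7.84, 7.98 and 7.75 at W2 (0.90 ± 0.13, adjusted p = 0.0024). In Xb130+/+ mice Vipr2 differed by -0.01 (8.46 to 9.06 at W4 and 8.49 to 8.86 at W2), and the difference in change was 0.91 (adjusted p = 0.0965). Nppc, which encodes C-type natriuretic peptide, rose by 0.85 ± 0.19 (adjusted p = 0.0385, and 0.146 without LH7711), and Gsn, the actin-severing protein gelsolin, by 0.45 ± 0.10 (adjusted p = 0.0375, 0.148 without LH7715 and 0.0703 with the thymocyte covariate). Gsn was the single called gene of 18 fibroblast markers, where 0.375% of all genes were higher. These 18 markers had a median of -0.18, or -0.06 without the marked arrays, with 14 differences negative and 4 positive.

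Single macrophage and antigen presentation genes rose, where 0.375% of all genes were higher. Vsig4, a complement receptor of resident macrophages, read 5.76, 5.79, 4.97 and 5.75 at W4 and 4.34, 4.30, 4.64 and 4.33 at W2 (1.17 ± 0.18 SE, adjusted p = 0.0034), the low W4 value being that of LH7717. Cd209a, a lectin of dendritic cells and the single called gene of 21 macrophage and dendritic cell markers (median 0.11), rose by 1.11 ± 0.24 (adjusted p = 0.0284, 0.0867 without LH7711 and 0.0543 with the thymocyte covariate), or by 0.47 without the marked arrays. The median of these 21 markers was 0.06 without the marked arrays. C7, a component of the membrane attack complex and the single called gene of 20 complement genes (median 0.15), read 7.54, 7.70, 7.38 and 7.66 at W4 and 6.60, 6.48, 6.53 and 5.90 at W2 (1.20 ± 0.23, adjusted p = 0.0139, and 0.0728 without LH7711). Cxcl13, the chemokine that attracts B cells, rose by 0.80 ± 0.16 (adjusted p = 0.0181, and 0.0867 without LH7711). It was the single called gene of 42 chemokines and cytokines (median -0.0056).

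H2-Eb1, a chain of MHC class II, rose by 0.59 ± 0.13 (adjusted p = 0.0353, and 0.133 without LH7711, or by 0.37 without the marked arrays), as the single called gene of 14 of class II presentation (median 0.12). The median of these 14 genes was 0.0067 without the marked arrays. Of all genes 0.375% were called higher. Irgm2, an interferon-inducible GTPase, rose by 0.57 ± 0.10 (adjusted p = 0.0065) as the single called gene of 40 interferon-stimulated genes. Of these 40, 36 had a positive difference, as had 52.8% of all genes, 11 had all W4 mice above all W2 mice (4.1% of all genes had) and none below, and the median was 0.18, against 0.12 in Xb130+/+ glands. Outside that list Ifi27l2a, also induced by interferon, rose by 0.95 ± 0.22 (adjusted p = 0.045, and 0.142 without LH7711), and H2-Q7, a nonclassical class I gene picked after its values were seen, by 0.83 ± 0.20 (adjusted p = 0.045, and 0.134 without LH7711). H2-Q7 belongs to a family of near-identical genes that its probe set may also read. Mature lymphocyte markers (14 genes, median 0.03) held no call.

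Of 18 clock genes 3 were higher and 1 lower, where 0.375% of all genes were higher and 0.487% lower. Nr1d1, which encodes the repressor REV-ERB alpha, read 12.27, 11.98, 12.23 and 12.17 at W4 and 11.14, 11.01, 11.37 and 11.34 at W2 in Xb130-/- mice, against 12.25, 12.20, 12.31 and 12.19 at W4 and 11.72, 11.03, 11.15 and 11.23 at W2 in Xb130+/+ mice. The rise was 0.95 ± 0.12 (SE) in Xb130-/- glands (adjusted p = 0.000565) and 0.95 ± 0.12 in Xb130+/+ glands (adjusted p = 0.00167). Dbp, an output factor of the clock, rose by 1.02 ± 0.24 in Xb130-/- glands (adjusted p = 0.0492, 0.146 without LH7711 and 0.0781 with the thymocyte covariate), and Nr1d2, a relative of Nr1d1, by 0.37 ± 0.09 (adjusted p = 0.0454, 0.166 without LH7711 and 0.0765 with the thymocyte covariate). Cry1, a repressor of the opposite limb, fell by 0.67 ± 0.14 (adjusted p = 0.0234, and 0.0806 without LH7717), with 6.90, 7.18, 6.79 and 7.36 at W4 and 8.01, 7.76, 7.58 and 7.57 at W2. In Xb130+/+ glands the differences were 0.42 for Dbp, 0.31 for Nr1d2 and -0.65 for Cry1, none of them called, and the tests of the difference in change gave adjusted p-values of 0.719, 0.943 and 0.99 for these 3 genes. Arntl, the core activator, read 9.20, 9.35, 9.64 and 8.84 at W4 and 9.90, 9.83, 9.79 and 9.93 at W2 and was not called (-0.61 ± 0.28, adjusted p = 0.351). Of the clock genes 1 to 4 were called without 1 array. The hour at which glands were taken was not stated in the labels or the methods, so age and hour cannot be told apart for these genes.

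Among genes of thyroid hormone synthesis only Duoxa1, the maturation factor of the dual oxidase Duox1, was called, out of 17 measured (median 0.08). Duoxa1 read 10.38, 10.43, 10.19 and 10.22 at W4 and 9.76, 9.71, 9.70 and 9.40 at W2 in Xb130-/- mice (0.66 ± 0.13 SE, adjusted p = 0.0181, and 0.0867 without LH7711). In Xb130+/+ mice it read 8.93, 8.72, 8.94 and 9.59 at W4 and 9.58, 9.63, 9.41 and 9.79 at W2 (-0.56, adjusted p = 0.0855). The change thus ran in opposite directions, and the difference of 1.22 between the genotypes passed the test (adjusted p = 0.0154). Duox1 itself read 8.63, 8.85, 8.60 and 8.68 at W4 and 8.22, 8.01, 7.997 and 7.78 at W2 and was not called (0.69 ± 0.18, adjusted p = 0.0712). Nox4, another NADPH oxidase found in thyroid cells and picked after its values were seen, rose by 0.82 ± 0.13 (adjusted p = 0.0044), with 8.53, 9.25, 8.48 and 8.64 at W4 and 7.99, 8.0001, 7.72 and 7.92 at W2.

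The other thyroid genes were not called between the ages. Tg, which encodes thyroglobulin and sits at the top of the array's range, differed by less than 0.01, with 13.91 to 13.94 at W4 and 13.85 to 13.97 at W2. Slc5a5, the iodide transporter, read 12.58, 12.47, 12.56 and 12.90 at W4 and 12.87, 12.90, 12.94 and 12.85 at W2 (-0.26 ± 0.21 SE, adjusted p = 0.625). Slc26a4, the anion transporter pendrin, differed by -0.06 ± 0.12, Duox2 by 0.23 ± 0.11, Duoxa2 by 0.20 ± 0.12, Iyd, which recovers iodide, by 0.05 ± 0.05, Tshr, the thyrotropin receptor, by -0.02 ± 0.09, and Dio1, an activating deiodinase, by 0.08 ± 0.07. Their adjusted p-values ran from 0.4 for Duox2 to 0.945 for Tshr. Of 10 thyroid transcription factors (median 0.06) none was called. Pax8 differed by 0.01 ± 0.07 and Nkx2-1 by 0.03 ± 0.07, while Foxe1 read 9.85 to 9.95 at W4 and 10.11 to 10.17 at W2 (-0.24 ± 0.06, adjusted p = 0.0554, and 0.0431 with the thymocyte covariate).

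Of 24 genes that respond to thyroid hormone (median 0.13), 2 were higher at W4 and none lower, where 0.375% of all genes were higher. The differences were positive in 16 and negative in 8 of the 24, and none was called without LH7711. Hr, a corepressor gene induced by the hormone, read 8.10, 8.07, 7.76 and 7.77 at W4 and 7.44, 7.41, 7.28 and 7.25 at W2 (0.58 ± 0.11 SE, adjusted p = 0.0114, and 0.0532 without LH7711). Klf9, an early target of the hormone receptor, rose by 0.46 ± 0.11 (adjusted p = 0.0497, 0.193 without LH7711 and 0.0948 with the thymocyte covariate), with an overlap of the ages, 11.35 in LH7717 at W4 against 11.44 in LH7705 at W2. Thrsp, a lipogenic target, read 9.44, 8.94, 8.88 and 9.16 at W4 and 8.39, 8.42, 8.36 and 8.34 at W2 without overlap, yet was not called (0.72 ± 0.26, adjusted p = 0.208). In Xb130+/+ mice Thrsp read 10.17 to 10.44 at W4 and 9.83 to 10.69 at W2, above every Xb130-/- mouse. Differences of Hr and Klf9 in Xb130+/+ glands were 0.13 and 0.11.

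Proliferation genes were not called. The 33 genes of mitosis had a median of -0.14 and the 32 genes of DNA replication one of -0.36 with none positive, but without the 4 arrays marked for thymocyte RNA these medians were 0.59 and -0.02. In that fit LH7705 alone stands for W2, and its mitosis mean of 7.99 was the lowest of the Xb130-/- mice at W2. With the thymocyte covariate the medians were 0.08 and -0.23. Mki67, the proliferation marker, read 10.08, 9.69, 10.80 and 10.43 at W4 and 9.80, 10.78, 10.75 and 10.98 at W2. The marked arrays among these were LH7717 at W4 (10.80) and all but LH7705 (9.80) at W2. In Xb130+/+ mice, none of them marked, the mitosis mean also varied, from 7.53 to 8.62 at W4 and from 7.32 to 9.08 at W2. The part of thymocyte RNA in this spread was not tested. No gene was called either among cAMP and thyrotropin receptor signaling (29 genes, median -0.04), TGF-beta and BMP signaling (38 genes, median -0.05), Wnt signaling (38 genes, median -0.08), the unfolded protein response (30 genes, median -0.07), immediate-early genes (28 genes, median 0.07) or amino acid carriers (25 genes, median 0.05). Skeletal muscle markers had the highest median of all lists, 0.62 over 22 genes, with no call. Their means spanned 7.85 to 10.36 at W4 and 7.76 to 9.36 at W2, and Myh4, a fast myosin, read 11.51, 10.46, 9.49 and 8.39 at W4 and 8.42, 8.38, 6.84 and 9.99 at W2. The thyrocyte list (13 genes, median -0.02) and the parathyroid list (5 genes, median 0.11) had no call either, with thyrocyte means of 11.54 to 11.64 at W4 and 11.61 to 11.67 at W2 in the labelled tissue.

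**Figure D4:**
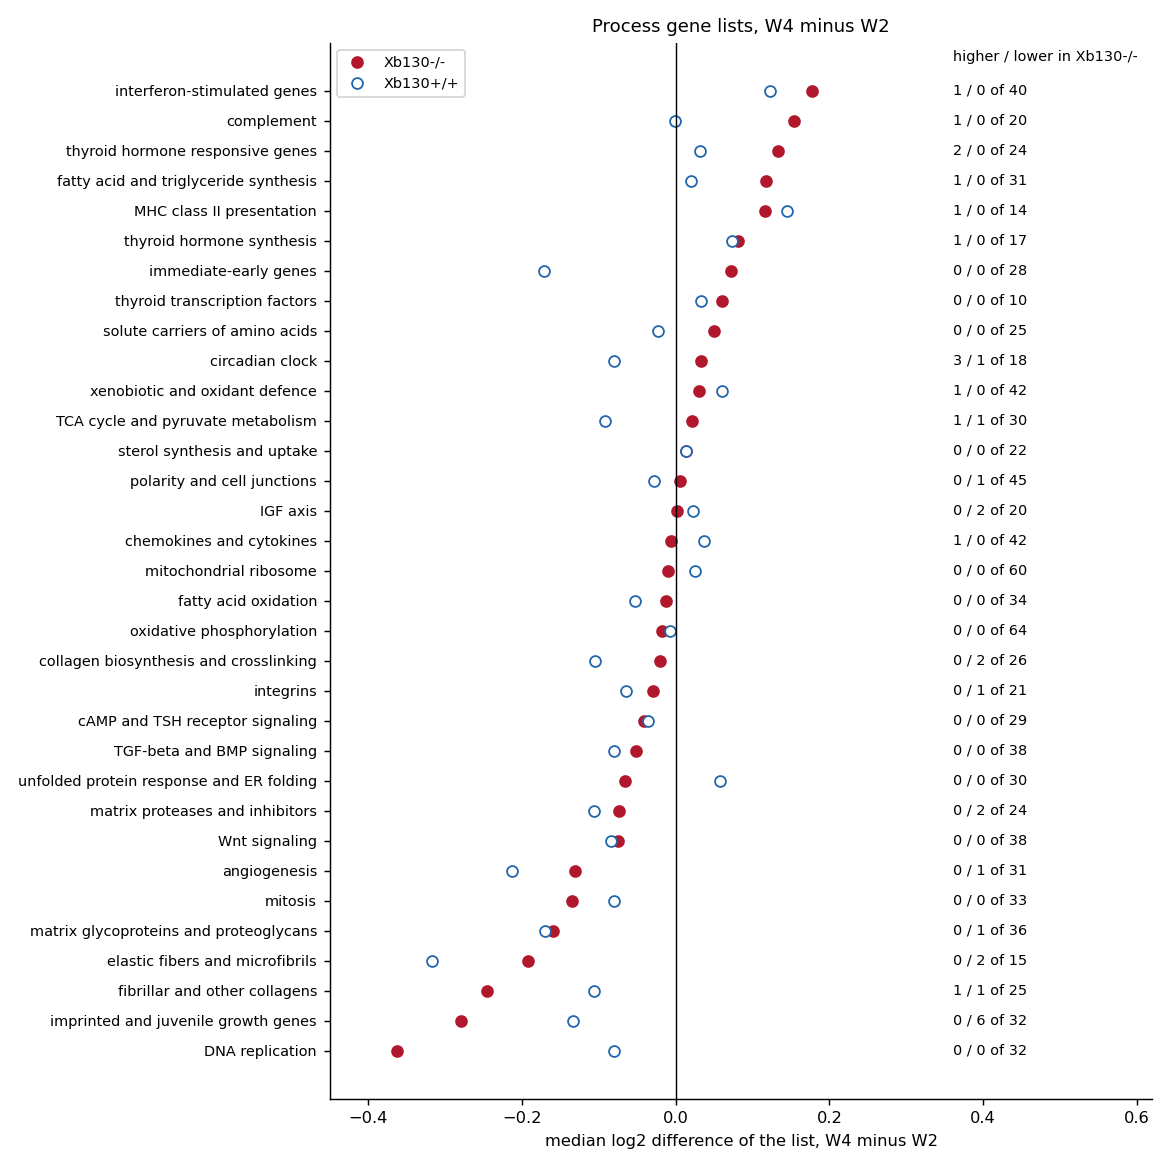
Median log2 difference W4 minus W2 of the 33 process lists in Xb130-/- mice (filled) and Xb130+/+ mice (open), with the number of genes called higher and lower in Xb130-/- mice at the right. DNA replication (median -0.36, none called), imprinted and juvenile growth genes (-0.28, 6 genes lower) and collagens (-0.25) lie lowest, and interferon-stimulated genes (0.18) lie at the top.

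Xb130+/+ glands were set against these changes in the same fit. Between W2 and W4 they had 29 called genes (15 higher and 14 lower, 0.125% of those tested), a number that ranged from 5 without LH7708 to 281 without LH7718. Of the 200 genes called in Xb130-/- glands 163 (81.5%) had the same sign in Xb130+/+ glands, as had 55.3% of all genes, and 195 had a larger difference in Xb130-/- than in Xb130+/+ glands. Since the 200 were selected for their size in Xb130-/- mice, this last count is a description and not a test. Called in both were 6 genes, 3% of the Xb130-/- calls and 20.7% of the Xb130+/+ calls. Of these Nr1d1, Wfdc17, a secreted protease inhibitor-like protein of macrophages (0.77 and 0.72), and Slc6a20a, a proline transporter (0.46 and 0.80), were higher at W4 in both genotypes. In Xb130-/- glands Slc6a20a had an adjusted p of 0.0741 with the thymocyte covariate and a difference of 0.30 without the marked arrays. H2-M9, a nonclassical histocompatibility gene (-0.71 and -0.89), and Ssu2 (-0.68 and -0.61) were lower in both, the Xb130-/- difference being given first, and Krtap17-1 went opposite ways. Apart from Nr1d1 and Krtap17-1 these were picked after their values were seen.

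The difference in change between the genotypes passed the test in 8 genes (0.0345%), 5 of which were also called in Xb130-/- glands. Car4, a carbonic anhydrase anchored to the cell surface, read 10.51, 10.61, 10.56 and 10.65 at W4 and 9.52, 8.93, 9.01 and 9.11 at W2 in Xb130-/- mice, against 10.83, 10.42, 10.79 and 10.63 at W4 and 10.62, 10.77, 10.97 and 10.43 at W2 in Xb130+/+ mice. Xb130-/- mice at W2 thus stood alone below the other groups, which overlapped. The rise in Xb130-/- glands was 2.71-fold (1.44 ± 0.13 SE, adjusted p = 6.04e-06), the lowest adjusted p of the comparison, and the difference in Xb130+/+ glands was -0.03 (adjusted p = 0.977). The difference in change was 1.47 (adjusted p = 0.00079). Car4 was also called from the 8 Xb130-/- arrays alone (adjusted p = 0.0106), and LH7705, the W2 mouse with the low thymocyte mean, had 9.52, so that the difference without the marked arrays was 1.07.

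Krtap17-1, which encodes a keratin-associated protein of hair, read 8.96, 9.35, 8.81 and 8.64 at W4 and 8.06, 7.97, 8.17 and 7.50 at W2 in Xb130-/- mice (1.01 ± 0.17 SE, adjusted p = 0.0045), against 7.40, 7.47, 7.75 and 7.72 at W4 and 8.41, 8.33, 8.56 and 9.04 at W2 in Xb130+/+ mice (-0.9997, adjusted p = 0.0161). Both ages were apart in both genotypes, in opposite directions, and the difference in change was 2.01 (adjusted p = 0.00079). Foxj1, the master regulator of motile cilia, read 6.93, 6.88, 6.97 and 7.08 at W4 and 7.69, 7.76, 7.96 and 7.86 at W2 in Xb130-/- mice (-0.85 ± 0.12, adjusted p = 0.0018). It read 6.86, 6.79, 6.51 and 6.95 at W4 and 6.51, 6.63, 6.97 and 6.47 at W2 in Xb130+/+ mice (0.13, adjusted p = 0.803). Here too the Xb130-/- mice at W2 stood apart from the other 3 groups, and the difference in change was -0.98 (adjusted p = 0.0302). Foxj1 was the single called gene of 14 markers of airway and esophageal epithelium, whose median was 0.02.

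Of the remaining 4, Lrrc26, an auxiliary subunit of BK potassium channels in epithelia, rose in Xb130-/- glands by 0.54 ± 0.12 (SE; adjusted p = 0.0284, and 0.0835 without LH7713) and differed by -0.40 in Xb130+/+ glands (adjusted p = 0.184). Its difference in change was 0.94 (adjusted p = 0.0407). Dnah11, an axonemal dynein of motile cilia, differed by -0.32 in Xb130-/- glands (adjusted p = 0.14) and rose by 0.54 in Xb130+/+ glands (adjusted p = 0.0307), with a difference in change of -0.86 (adjusted p = 0.0253). Dpysl3, a cytoskeletal protein of growing neurites, read 8.79 to 9.36 at W4 and 9.17 to 9.61 at W2 in Xb130-/- mice, against 10.10 to 11.30 at W4 and 9.46 to 9.80 at W2 in Xb130+/+ mice, and was called in Xb130+/+ glands (1.19, adjusted p = 0.00916) with a difference in change of -1.45 (adjusted p = 0.0407). Gm15998 differed by 0.25 in Xb130-/- glands (adjusted p = 0.414) and by -0.80 in Xb130+/+ glands (adjusted p = 0.0104), with a difference in change of 1.05 (adjusted p = 0.0302). These 8 calls varied with single arrays, from 2 genes without LH7713, LH7715 or LH7706 to 29 without LH7718, and numbered 2 in a fit of the 16 arrays of W4 and W2.

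**Figure D5:**
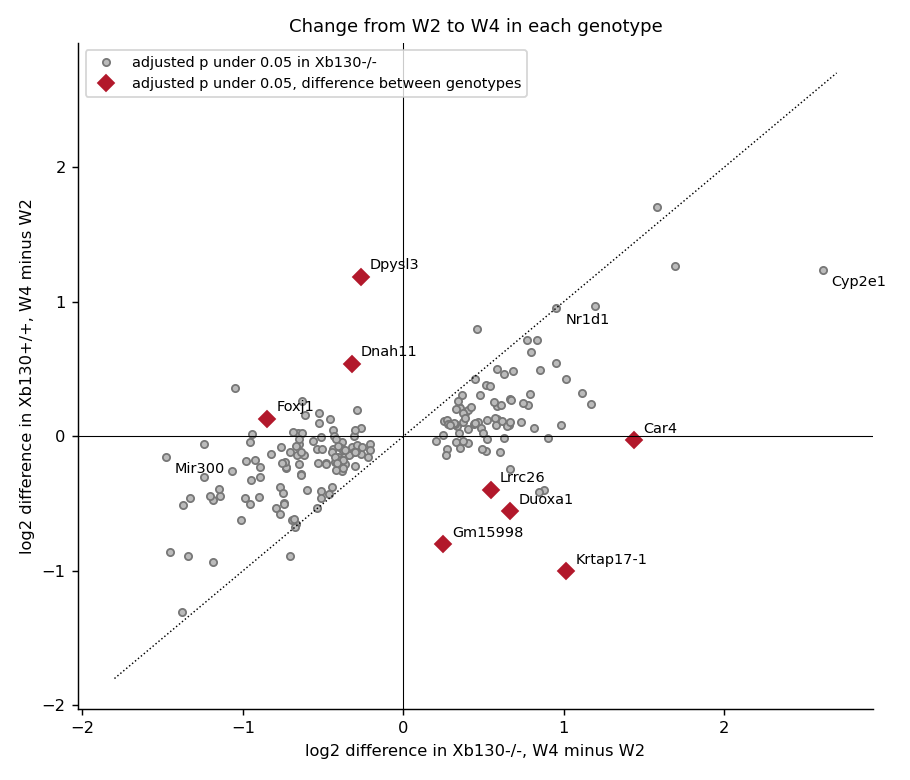
Log2 difference W4 minus W2 in Xb130-/- mice (horizontal) and in Xb130+/+ mice (vertical) for the 200 genes called in Xb130-/- mice (gray, or red where both apply) and the 8 genes whose change differed between genotypes (red diamonds), with n = 4 per group and a dotted line of equal change. Of these 200 genes 195 had a larger difference in Xb130-/- than in Xb130+/+ mice, Nr1d1 lies on the line, and Krtap17-1 (1.01 against -0.9997) and Duoxa1 (0.66 against -0.56) lie on opposite sides of 0.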

How the data were processed

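Total RNA of 24 mouse thyroid glands was measured on Affymetrix Mouse Gene ST 2.0 arrays, 1 mouse per array. The authors background-corrected, quantile-normalized and summarized the intensities over all arrays by RMA with the oligo package and deposited log2 expression values, 1 per probe set. Quantile normalization gives all arrays the same distribution, so a shift of most genes at once would be lost, and the number of arrays limits the precision. Probe sets without a gene symbol (2021 of 25206) were left out. Genotype and age were taken from the labels. The deposited log2 values entered limma (version 3.58.1, under R 4.3.3), in which every genotype had its own mean at every age, with moderated variances (18 residual and 2.85 prior degrees of freedom), and p-values were adjusted by the Benjamini-Hochberg method over 23185 genes. Contrasts were W4 minus W2 in Xb130-/- mice, the same in Xb130+/+ mice, and the difference of these differences. The script was tested on simulated data.

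An array counted as marked for thymocyte RNA if its average over 22 thymocyte genes exceeded that of the highest Xb130+/+ array by over 0.5. The mean of each list was taken over its measured genes. Alternatives were fits of fewer arrays, trended and robust variances, array weights, leaving out genes under the 30 percentile of level, all probe sets, other scalings, covariates, a 1.5-fold minimum, and each array left out in turn.

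Genes named were those with the largest called differences, with and without the thymocyte covariate, the largest called members of each list, list-defining and thyroid hormone genes whatever their test, and genes whose change differed between genotypes. Mir544, Mir485, Mir382, Mir453, Mir377, Mir369, Wfdc17, H2-M9, Slc6a20a, Ssu2, Mdk, Ptn, Cdh2, H2-Q7, Hsd11b1 and Nox4 were chosen after their values were seen. The members and lists were chosen with earlier results of these data known. With 4 mice against 4, an exact two-sided permutation test of a single value cannot go below p = 0.0286.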

Additional observations from a re-analysis of the deposited data

Results flagged for a closer look

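In 322 checks of single genes and list means within a group of 4 mice, 20 (6.21%) had 1 mouse far from the other 3, and chance gives about 5%. In Xb130-/- mice at W4, LH7717 was low in Vsig4 (4.97) and high in the thymic epithelium mean (8.28), LH7719 was high in AF357426 (5.03) and Col9a3 (7.68), and LH7713 was high in H19 (9.77) and in the means of immature skeletal muscle (6.56), cartilage (7.44) and Schwann cell and neuron markers (7.36). In Xb130-/- mice at W2, LH7711 was high in Igf2 (11.16), Adipoq (8.75) and the adipocyte mean (10.30) and low in Duox2 (9.05) and the mean of polarity and junction genes (9.99). LH7709 was high in Vsig4 (4.64) and Col4a6 (8.89), and LH7707 was low in Mir377 (6.12) and Ssu2 (8.68). LH7705 was low in Cd3e (6.85), Cd3g (6.84) and the mitochondrial ribosome mean (8.94), the other 3 W2 mice being the marked ones.

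The change from W2 to W4 differed between Xb130-/- and Xb130+/+ mice in 8 genes by limma. The difference in change was positive for Krtap17-1 (2.01, adjusted p = 0.000792), Car4 (1.47, adjusted p = 0.000792), Duoxa1 (1.22, adjusted p = 0.0154), Gm15998 (1.05, adjusted p = 0.0302) and Lrrc26 (0.94, adjusted p = 0.0407). It was negative for Dpysl3 (-1.45, adjusted p = 0.0407), Foxj1 (-0.98, adjusted p = 0.0302) and Dnah11 (-0.86, adjusted p = 0.0253).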

How the results depend on the processing

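No paired analysis was possible because the labels give no number shared between the ages. The 200 genes called in Xb130-/- glands (87 higher, 113 lower) became 14 (9 and 5) in a fit of the 8 arrays, 65 (26 and 39) with the 12 Xb130-/- arrays, 359 (175 and 184) with array weights, 92 (40 and 52) with 3 covariates, 2 (2 and 0) without the marked arrays, where a single W2 mouse is assumed to vary like the others, and 98 (38 and 60) at 1.5-fold or more. Leaving out 1 array gave 56 to 209 (26 to 91 higher, 30 to 118 lower). The 8 genes that differed between genotypes became 2 with 16 arrays, 5 with the thymocyte covariate, 12 with trended variances or array weights and 0 without the marked arrays, and 2 to 29 without 1 array. The 29 genes of Xb130+/+ glands became 3 with 16 arrays, 101 with trended variances, 164 with array weights, 91 without dim genes, 47 with 3 covariates, 19 without the marked arrays and 19 at 1.5-fold, and 5 to 281 without 1 array. These alternatives for Xb130+/+ glands were chosen after seeing the data. The cause of these shifts was not tested. All 76 named calls kept their direction in the fits of fewer Xb130-/- arrays and with covariates. In fits of fewer arrays this was fixed in advance for genes with complete separation of the ages. Of the 76 calls, 62 were kept with the thymocyte covariate, 40 with 3 covariates, 36 with 12 arrays and 6 with 8 arrays. Without genes under the 30 percentile of level 68 of the 76 named calls were left. Mir300, Mir544, AF357426 (15.6 percentile), Vsig4 (23.3) and Agtr2 (24.7) are among the dim genes, which limits them.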
